A study of Ovis aries with 23 samples.

Results

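In adolescent sheep hearts, the infarct core was set directly against the border zone around it, with 3 arrays of Adolescent Infarct and 3 of Adolescent Border, 6 of the 23 arrays in the study. All 6 samples were chosen by their titles alone. The question was which transcripts differ between the dead centre of an infarct and its edge, and so which changes belong to the core rather than to the whole injured area.

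The adolescent sheep were 6 months old, and an artery feeding the left ventricle, the second diagonal branch of the left anterior descending coronary artery, had been tied off to make the infarct. Hearts were taken 3 days later, and RNA came from the infarct, the border zone and remote muscle. The same operation was done on fetuses at 105 days of gestation, and sham-operated animals of both ages served as controls. The other groups used here are 3 arrays of adolescent remote muscle, 2 of adolescent sham and 3 each of fetal infarct and fetal border. No transgene or drug was part of the design, and all infarct, border and remote samples carry the ligation. The labels do not say how the edge of the border was drawn, which samples came from the same animal, or whether the replicates are separate animals. A p-value here reflects only scatter among arrays, pooled over all 23 arrays of the study, and that scatter may be technical. Fetal remote and fetal sham, 3 arrays each, enter through this pooled spread alone. For a gene whose infarct arrays vary more than the pool, the standard error is too small.

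Each array was a 1-colour Agilent chip with 60-base probes. A level is the log2 of a probe's signal minus the 75th percentile of that array, so that 1 unit is a 2-fold difference and 0 is the level of a bright probe. A difference is the mean of the infarct arrays minus the mean of the border arrays, with the standard error (SE) of one limma model over all 8 groups, and adjusted p is limma's p after Benjamini-Hochberg adjustment over all 12451 tested probes, with a threshold of 0.05. The arrays were not equally bright. The 75th percentile of signal intensity was 757, 876 and 1345 on the infarct arrays, 672, 522 and 230 on the border arrays and 307 to 375 on the remote arrays. Border array 3 was the dimmest of the 6, with 64.4% of probes well above background against 78.3% to 79.2% on the other 5. Several results below rest on that array, and the calls that end without it are given for the genes named by rule, LOC symbols apart. Genes singled out after their values were seen, and list members not named below, were not followed in this way.

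When a coronary artery closes, cardiomyocytes downstream die within hours and their contractile and mitochondrial transcripts are lost with them. Neutrophils and then macrophages enter to clear the debris, driven by chemokines and interleukins, and fibroblasts and vessel cells then divide and lay down collagen. The border zone holds surviving muscle beside the same inflammatory and repair cells, so a comparison of core with border asks how far each of these programmes is graded across the wound.

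The probes below stand for the programmes on which the comparison turns, and are shown because each level is a reading of this short stretch and not of the whole gene. MYH7 is the slow cardiac myosin heavy chain, TPM1 is tropomyosin of the thin filament, ENO3 is the muscle enolase of glycolysis, and SLC25A4 is the heart and muscle exchanger of ATP and ADP across the inner mitochondrial membrane. COL3A1 is fibrillar collagen III, CDK1 is the kinase that drives mitosis, and NOS2 is the inducible nitric oxide synthase of activated phagocytes. All 7 sequences are as printed in the scanner files, 5′ to 3′. In COL3A1 the capitals mark 6 codons that begin with GG and so encode the glycine of the repeated collagen triplet, in the frame that starts at base 3.
MYH7: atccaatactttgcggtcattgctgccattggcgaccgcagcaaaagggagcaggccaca
TPM1: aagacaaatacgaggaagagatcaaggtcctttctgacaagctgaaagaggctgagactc
ENO3: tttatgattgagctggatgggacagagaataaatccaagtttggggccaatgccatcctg
SLC25A4: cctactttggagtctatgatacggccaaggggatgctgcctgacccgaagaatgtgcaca
COL3A1: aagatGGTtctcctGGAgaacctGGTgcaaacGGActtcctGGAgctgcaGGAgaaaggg
CDK1: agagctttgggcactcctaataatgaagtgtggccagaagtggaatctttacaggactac
NOS2: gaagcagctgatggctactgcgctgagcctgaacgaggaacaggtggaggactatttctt
Myosin heavy chains of muscle are closely related genes, and the MYH7 probe may also read a relative. A genome of the build behind these probes was not used here, so no positions are given.

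The deepest differences of the core from the border were losses. Among all 12451 probes, 1895 were lower in the infarct (15.2%) and 1327 were higher (10.7%), and the falls were deeper than the rises. The median difference was −1.29 among the lower probes and 0.88 among the higher ones, 430 probes fell at least 4-fold and 10 rose as much, and 56 fell at least 16-fold against 2 that rose as much. Among the 857 named genes, 134 were lower (15.6%) and 93 higher (10.9%). Calls in either direction made up 25.9% of probes and 26.5% of named genes. The 3 infarct arrays all lay below the 3 border arrays for 22.4% of probes and 24.5% of named genes, and all above them for 20.5% and 20.7%. Of the calls, 41.2% were higher, but in the authors' deposited values, on 8411 probes, 1934 were higher and 1338 lower, a share of 59.1%. Without border array 3 the calls came to 319 higher and 1108 lower, and without infarct array 3 to 637 and 1349.

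Muscle transcripts carried the deepest losses. The MYH7 level was −3.78, −0.55 and −4.10 on infarct arrays 1 to 3 and 2.89, 3.30 and 3.86 on border arrays 1 to 3. Every infarct array lay far below every border array, infarct array 2 the least so, and the signal was still well above background on all 3 infarct arrays. The difference of −6.16 ± 0.65 (SE) was a 71.6-fold fall, adjusted p = 4.18e-06. Myoglobin (MB), the oxygen store of red muscle, was at 0.21, 3.99 and 2.14 in the infarct and at 7.05, 7.0 and 8.33 in the border. The groups did not overlap, the infarct arrays spread over nearly 4 units, and the fall was 40.7-fold (−5.35 ± 0.60, adjusted p = 6.32e-06). TPM1 stood at 3.83, 5.63 and 4.35 against 7.78, 7.94 and 8.60, an 11.3-fold fall (−3.50 ± 0.32, adjusted p = 1.95e-06). Its arrays were likewise apart, again with infarct array 2 the highest of the infarct. In such bulk samples fewer cells of a type and less RNA per cell cannot be told apart.

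The contraction list had 2 tested members, MYH7 and TPM1, and the cardiomyocyte marker list had 2 of its 21 tested, MYH7 and MB. All of these fell, beside 15.6% of all named genes lower. The mean level of the 2 cardiomyocyte markers was −1.78 to 1.72 on the infarct arrays, 4.97 to 6.10 on the border arrays and 6.72 to 6.88 on the remote arrays; the 3 zones did not overlap. Other defining cardiomyocyte genes, such as troponin C1, phospholamban and the calcium pump of the reticulum, were not analysed here. The small heat shock protein CRYAB, a chaperone of desmin and actin abundant in heart, was at 4.57, 5.98 and 4.48 against 7.57 and 8.54 in the border, the spot on border array 3 having been left out as an outlier by the scanner software. It fell 8.26-fold (−3.05 ± 0.40, adjusted p = 3.95e-05) while the 6 other members of the heat shock list did not pass.

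**Figure D1:**
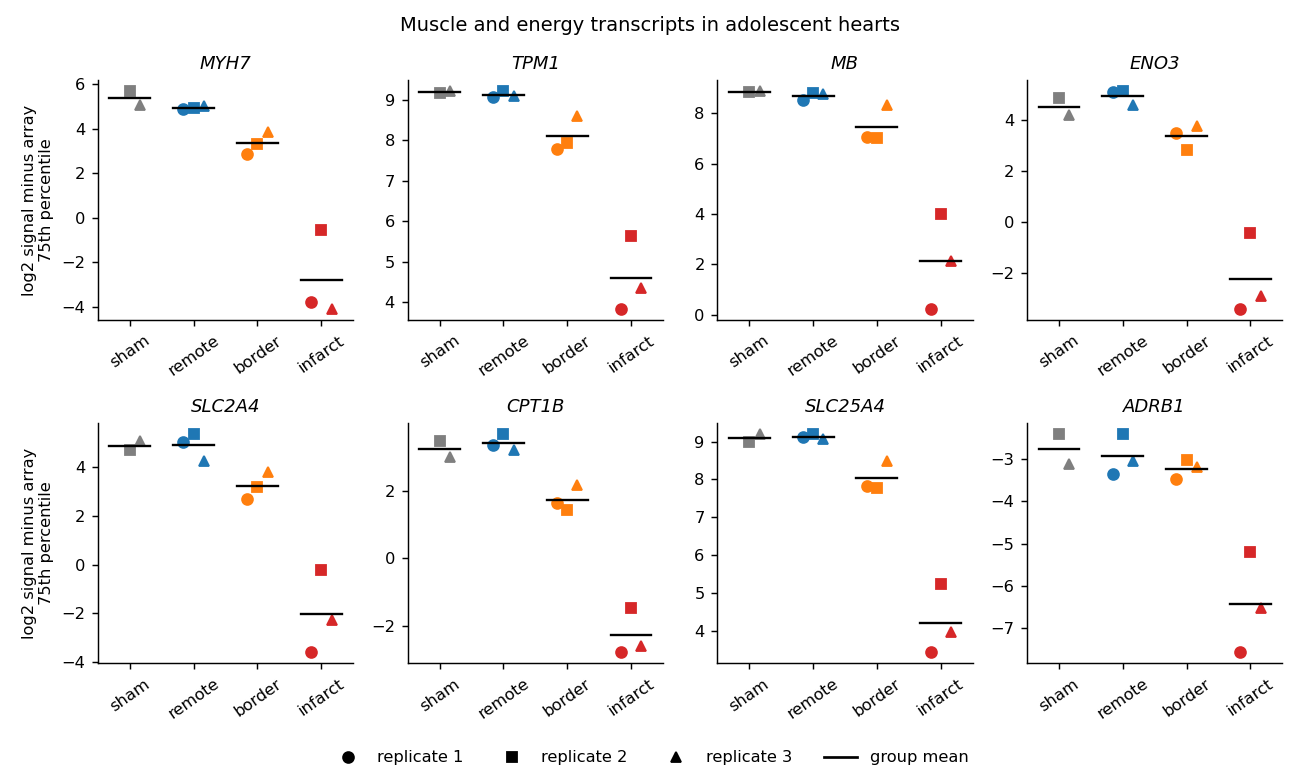
Levels of 8 muscle and energy genes in adolescent hearts, on a vertical axis of log2 signal minus the array's 75th percentile, for sham, remote, border and infarct; each point is 1 array, its shape gives the replicate number, and the line is the group mean. In every panel the 3 infarct points lie below the 3 border points, as for MYH7 with −4.10 to −0.55 against 2.89 to 3.86, and in most the border lies below remote.

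Genes that burn fuel fell with the muscle. Of 15 genes of glycolysis and glucose transport 7 were lower and none higher, beside 15.6% of all named genes lower. The list median was −1.1, beside 0.04 for all named genes. ENO3 was at −3.41, −0.40 and −2.88 in the infarct and at 3.51, 2.83 and 3.80 in the border. The groups lay wide apart, and the fall was 48.9-fold (−5.61 ± 0.51, adjusted p = 1.95e-06). The insulin-responsive glucose transporter SLC2A4 (GLUT4) read −3.61, −0.22 and −2.27 against 2.70, 3.19 and 3.82, a 38.7-fold fall (−5.27 ± 0.68, adjusted p = 2.41e-05). Muscle phosphofructokinase PFKM, which commits glucose to glycolysis, fell 20.0-fold, and muscle glycogen phosphorylase PYGM, which releases glucose from glycogen, fell 17.6-fold, both with no overlap of arrays. The falls in ALDOA (−1.40 ± 0.20) and GAPDH (−1.15 ± 0.24), glycolytic enzymes found in many cell types and singled out after their values were seen, were smaller. SLC2A1 (GLUT1), the glucose transporter of most non-muscle cells, was 1.01 ± 0.59 higher and did not pass (adjusted p = 0.214).

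Fatty acid oxidation lost 5 of 7 tested genes and gained none (median −1.54), beside 15.6% of all named genes lower. CPT1B, the muscle form of the enzyme that admits long-chain fatty acids to mitochondria, was at −2.77, −1.45 and −2.58 in the infarct and at 1.62, 1.42 and 2.16 in the border. No infarct array came near a border array, and the fall was 16-fold (−4.0 ± 0.37, adjusted p = 1.95e-06). PPARGC1A, the coactivator that drives mitochondrial gene expression, was at −8.26, −5.25 and −8.62 against −2.42, −2.59 and −0.95. It was well above background on only 1 of the 3 infarct arrays, so its fitted fall of 41.9-fold (−5.39 ± 0.75, adjusted p = 5.44e-05) rests partly on dim values, and it did not pass in the deposited values. PPARA, a nuclear receptor that switches on fatty acid oxidation, fell 3.31-fold (−1.73 ± 0.26, adjusted p = 0.000124), and lipoprotein lipase LPL fell 2.90-fold (−1.54 ± 0.40, adjusted p = 0.01). Without infarct array 3 LPL no longer passed (−1.19, adjusted p = 0.0642).

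Oxidative phosphorylation lost 5 of 6 tested genes (median −1.65), beside 15.6% of all named genes lower. SLC25A4 was at 3.42, 5.24 and 3.97 in the infarct and at 7.82, 7.77 and 8.49 in the border. These arrays were well apart, a 14.1-fold fall (−3.81 ± 0.33, adjusted p = 1.95e-06). The ATP synthase subunits fell less, ATP5PO 3.51-fold (−1.81 ± 0.24), ATP5MC1 3.17-fold (−1.66 ± 0.21) and ATP5MC2 2.56-fold (−1.36 ± 0.25), all with arrays apart and adjusted p of at most 0.00086. Of the 4 tested ATP5MC1 probes, at −1.94 to −0.70, 2 passed. SDHD, a membrane anchor of succinate dehydrogenase and the only tested gene of the tricarboxylic acid cycle, fell 2.44-fold (−1.29 ± 0.23, adjusted p = 0.000626). The mitochondrial superoxide dismutase SOD2 fell 3.42-fold (−1.78 ± 0.37, adjusted p = 0.00201), and ENDOG, a nuclease of mitochondria, fell 3.87-fold (−1.95 ± 0.25, adjusted p = 2.19e-05). The muscle-type transcripts ENO3, PFKM, PYGM, CPT1B and SLC25A4 thus fell by 14.1-fold to 48.9-fold, the ATP synthase subunits by 2.56-fold to 3.51-fold. After normexp background correction the 3 ATP synthase subunits, SDHD and SOD2 kept their sign and did not pass.

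A fuel sensor and a lipid droplet protein of muscle were among the deepest falls. PRKAA2, a catalytic subunit of AMP-activated kinase abundant in muscle, was at −7.06, −4.39 and −7.21 against −1.53, −1.43 and −0.13, a 36.5-fold fall (−5.19 ± 0.60, adjusted p = 8.54e-06). PLIN5, which coats lipid droplets beside mitochondria of oxidative tissue, was at −8.36, −5.61 and −8.86 against −2.46, −3.67 and −2.32, a 27.7-fold fall (−4.79 ± 0.65, adjusted p = 4.15e-05). Both were well above background on 1 infarct array only, so the sizes rest partly on dim values. PLIN2, the perilipin of most non-muscle cells including lipid-laden macrophages, went the other way, with 2.53, 1.22 and 2.19 in the infarct and 1.29, 0.02 and −0.51 in the border. The groups overlapped, since border array 1 stood above infarct array 2, and the rise was 3.28-fold (1.71 ± 0.41, adjusted p = 0.00615). It was 1.32 without border array 3, with an adjusted p of 0.0535.

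Genes by which muscle cells receive signals and conduct current also fell. ADRB1, the beta-1 adrenergic receptor of heart, was at −7.57, −5.19 and −6.52 in the infarct and at −3.47, −3.03 and −3.19 in the border, an apart set of arrays with a 9.20-fold fall (−3.20 ± 0.41, adjusted p = 2.23e-05). Its signal was well above background on 1 infarct array only. Connexin 43 (GJA1), the main gap junction protein of the ventricle, was at −0.30, 0.16 and −1.18 against 0.88, 1.16 and 2.07. It fell 3.51-fold with no overlap (−1.81 ± 0.31, adjusted p = 0.000353), and the sodium pump subunit ATP1B1 fell 3.39-fold (−1.76 ± 0.25, adjusted p = 6.98e-05). In all, 3 of the 5 tested genes of calcium handling and ion channels fell and none rose, beside 15.6% of all named genes lower.

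Among 15 receptors of the renin, steroid and nuclear families 5 fell and none rose, beside 15.6% of all named genes lower. The mineralocorticoid receptor NR3C2 was at −1.71, −0.68 and −1.36 against 0.69, 1.11 and 2.31, a 6.14-fold fall (−2.62 ± 0.34, adjusted p = 2.36e-05) with all infarct arrays below the border. The angiotensin II type 1 receptor AGTR1 was at −3.71, −2.53 and −2.89 against −1.94, −0.82 and −0.62. It fell 3.78-fold (−1.92 ± 0.35, adjusted p = 0.000685), and the thyroid hormone receptor THRB fell 3.29-fold (−1.72 ± 0.34, adjusted p = 0.00162). The insulin receptor INSR and the IGF1 receptor IGF1R, which share ligands of the insulin family, both fell, INSR 3.55-fold (−1.83 ± 0.29) with 1 of 3 infarct arrays above background and IGF1R 3.95-fold (−1.98 ± 0.42). Of the 3 tested IGF1R probes, at −1.98 to −0.77, 2 passed.

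Growth factors and their receptors held more falls than rises. Of 25 tested growth factors 6 were lower and 1 higher, and of 26 receptors and binding proteins 8 were lower and 2 higher. Among all named genes 15.6% were lower and 10.9% higher. BMP7, a bone morphogenetic protein that opposes transforming growth factor beta in several tissues, was at −4.50, −2.62 and −5.57 in the infarct and at −0.44, −0.70 and 0.26 in the border, a 15.3-fold fall (−3.94 ± 0.51, adjusted p = 2.65e-05). FGF1, an acidic fibroblast growth factor, fell 9.67-fold (−3.27 ± 0.42, adjusted p = 2.36e-05), and INHA, the inhibin alpha subunit, fell 6.64-fold (−2.73 ± 0.41, adjusted p = 0.000106). All 3 had arrays apart. The angiogenic factor VEGFA was at −0.32, −0.29 and −1.66 against 0.45, 0.26 and 1.79 and fell 3.01-fold (−1.59 ± 0.54, adjusted p = 0.0384). It did not pass without border array 3 (−1.11, adjusted p = 0.225) or infarct array 3 (−1.14, adjusted p = 0.187), and BMP6 (−1.24 ± 0.33) did not pass without border array 3 (−1.08, adjusted p = 0.066). The other BMP6 probe gave −0.38 and did not pass.

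The growth factors and receptors that rose were fewer. IGFBP4, a binding protein that restrains insulin-like growth factors, was at 4.42, 4.19 and 4.83 in the infarct and at 3.40, 3.54 and 2.78 in the border. Its arrays did not overlap and it rose 2.36-fold (1.24 ± 0.25, adjusted p = 0.00189). TGFB1, the cytokine that drives fibroblasts to make matrix, rose 1.86-fold (0.90 ± 0.28, adjusted p = 0.0254) with overlapping arrays, while its receptor TGFBR2 fell 1.81-fold (−0.85 ± 0.21, adjusted p = 0.00682). Its signal transducer SMAD3 was not well above background on any infarct array and was at least 2.43-fold lower there (adjusted p = 0.0453), and the Wnt receptor FZD2 rose 2.47-fold (1.31 ± 0.34, adjusted p = 0.00961). Without border array 3 TGFB1 stood at 0.43 (adjusted p = 0.158), FZD2 at 0.95 (0.079 likewise adjusted) and SMAD3 at an adjusted p of 0.104. TGFB1 also lost its call without infarct array 1 (0.75, adjusted p = 0.0946) or infarct array 3 (0.88, adjusted p = 0.072), and SMAD3 with no filter (0.0524), after quantile normalization (0.0979) or without any of infarct arrays 1 and 3 and border arrays 1 and 2 (adjusted p 0.0854 to 0.174). IGF1 (0.45 ± 0.50) and IGF2 (−0.21 ± 0.30) did not pass.

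**Figure D2:**
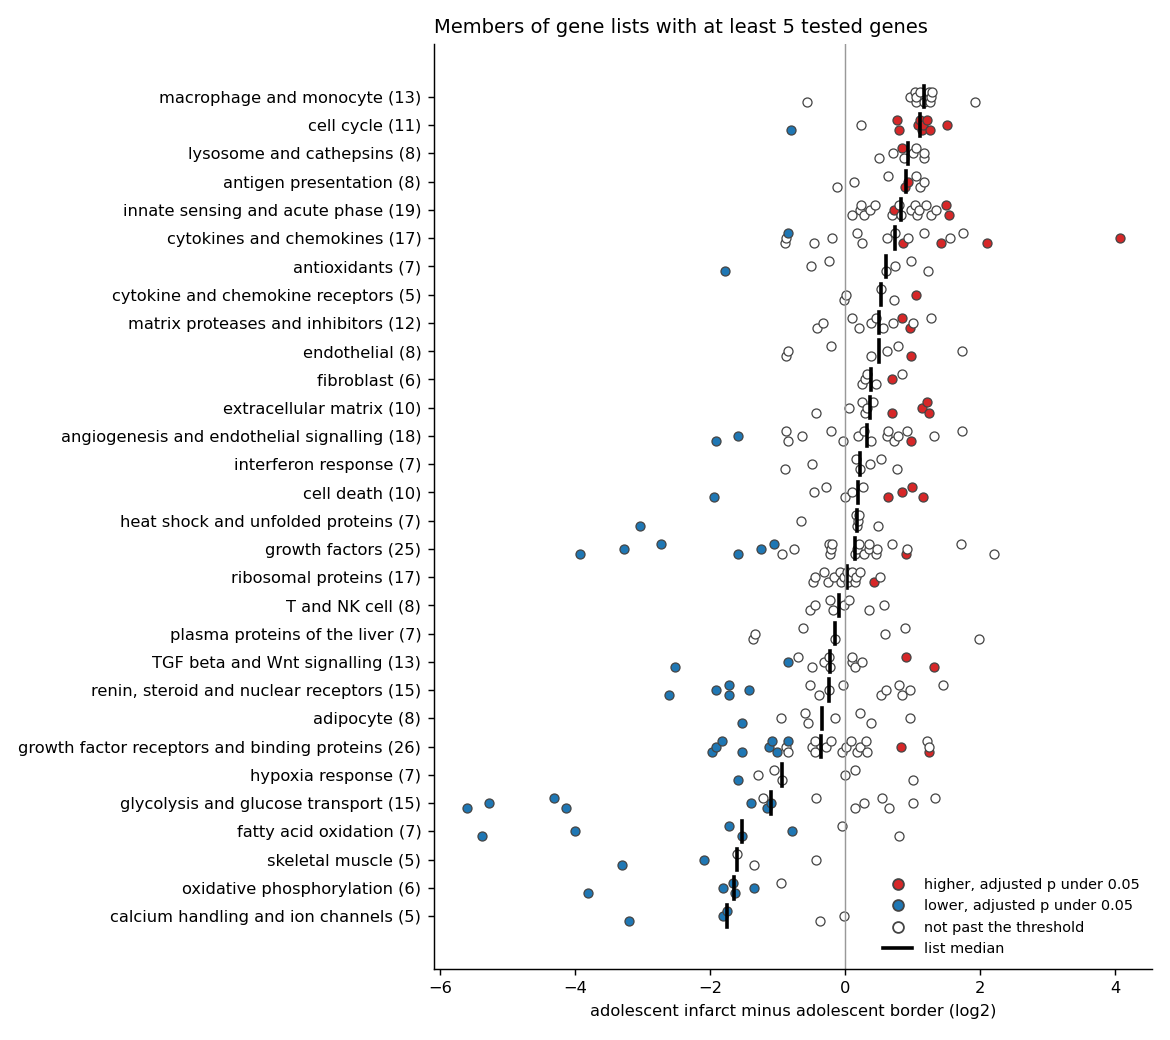
Difference of adolescent infarct minus adolescent border (log2, horizontal axis) for the tested members of each gene list with at least 5 of them, the number of members in brackets; filled points passed an adjusted p of 0.05, red higher and blue lower, and the black bar is the list median. Energy and ion channel lists lie to the left, with oxidative phosphorylation at a median of −1.65, and the cell cycle list holds 9 red points at a median of 1.1, while the macrophage list has a median of 1.17 and no filled point.

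Inflammatory genes included the highest rise of any named gene, and most of those tested did not pass. CXCL8 (interleukin 8), the main chemokine that draws neutrophils, was at 1.67, 2.74 and 0.89 in the infarct and at −2.56, −1.64 and −2.70 in the border. All infarct arrays stood over 2 units above all border arrays, a 16.8-fold rise (4.07 ± 0.93, adjusted p = 0.0043). A second probe of the gene gave 4.23 and also passed. IL1B (interleukin 1 beta), made by activated phagocytes, was at −2.07, −1.84 and −1.57 against −3.86, −3.64 and −4.30, a 4.30-fold rise with arrays apart (2.10 ± 0.52, adjusted p = 0.00726). IL1B on border array 3 was not well above background, and neither was NOS2. Without border array 3 CXCL8 (3.87, adjusted p = 0.0261) and IL1B (1.92, adjusted p = 0.0446) still passed. CXCL8 lost its call only with array brightness as a covariate (adjusted p = 0.0561). IL1B lost its call there, after normexp background correction, and without infarct array 3 and border array 3 together. Over the alternatives the IL1B difference went as low as 0.039 and its adjusted p as high as 0.967.

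Of 17 cytokines and chemokines 4 rose and 1 fell, with a median of 0.73, beside 10.9% of all named genes higher and 15.6% lower. The others that rose were IL10, an anti-inflammatory interleukin, by 2.67-fold (1.42 ± 0.50, adjusted p = 0.0465) and MIF, a cytokine that holds macrophages in place, by 1.81-fold (0.86 ± 0.28, adjusted p = 0.0304). The chemokine CXCL1 was called 1.80-fold lower (−0.85 ± 0.29, adjusted p = 0.0409), but did not pass after quantile normalization (−0.43, adjusted p = 0.184) or in the deposited values (−0.18, adjusted p = 0.518). IL6 was at 0.73, −0.10 and 0.14 in the infarct and at −0.82, −2.31 and −1.33 in the border, apart but with a difference of 1.74 ± 0.98 that did not pass (adjusted p = 0.197), and IL1A differed by 0.62 ± 0.55. The chemokine receptor CXCR4 rose 2.07-fold (1.05 ± 0.37, adjusted p = 0.0439) with overlapping arrays, the only one of 5 tested receptors to pass. CXCR4 and IL10 did not pass after quantile normalization (adjusted p = 0.061 and 0.0608) or with no filter on dim probes (0.0519 and 0.0538). Without border array 3 the adjusted p of IL10, MIF, CXCL1 and CXCR4 was 0.175 to 0.263 (differences 1.15, 0.49, −0.71 and 0.67). Without infarct array 1 those of IL10, MIF and CXCR4 were 0.077 to 0.124, without infarct array 3 those of all 4 were 0.0751 to 0.239, and without border array 2 those of IL10, CXCL1 and CXCR4 were 0.0598 to 0.0926.

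Of 19 tested genes of innate sensing and the acute phase 3 rose, beside 10.9% of all named genes higher. All 19 differences were above 0 (median 0.82), and the gap between the list's mean levels in infarct and border was 0.82, or 0.54 without border array 3. PTGS2 (cyclooxygenase 2), which makes prostaglandins in inflamed tissue, was at −0.91, −1.33 and −0.78 in the infarct and at −2.32, −2.54 and −2.62 in the border. The arrays were tight and apart, a 2.81-fold rise (1.49 ± 0.43, adjusted p = 0.0178), but the other probe of the gene gave −0.50 and did not pass. The mean of the 2 PTGS2 probes did not pass (0.49, adjusted p = 0.44). NOS2 was at −1.93, −2.44 and −2.31 against −2.45, −3.86 and −4.98, just apart because border array 1 came close, and rose 2.89-fold (1.53 ± 0.47, adjusted p = 0.0247). Of the 2 NOS2 probes, at 1.51 and 1.53, 1 passed. IRAK4, a kinase downstream of Toll-like receptors, rose 1.65-fold (0.72 ± 0.23, adjusted p = 0.0263). Without border array 3 the adjusted p of PTGS2, NOS2 and IRAK4 was 0.073, 0.183 and 0.106, without infarct array 3 it was 0.0668, 0.0594 and 0.123, and NOS2 and IRAK4 also missed the threshold without infarct array 1 (0.0765 and 0.0618) or border array 2 (0.0552 and 0.0525). The receptors TLR2 (1.35 ± 0.75), TLR4 (1.06 ± 0.46) and CD14 (1.03 ± 0.50) did not pass.

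No phagocyte marker passed the test, beside 26.5% of all named genes called in either direction. Of 13 macrophage and monocyte markers 12 were above 0 (median 1.17, beside 0.04 for all named genes). The gap between the list's mean levels in infarct and border was 1.08, or 0.66 without border array 3. Their mean level was 1.89 to 2.47 on the infarct arrays, 0.35 to 1.62 on the border arrays and −1.09 to 0.84 on the remote arrays, and the part of these cells in the rises of CXCL8, IL1B and NOS2 was not tested. FCER1G, the signalling chain of Fc receptors, was at 5.11, 4.46 and 5.33 against 4.34, 4.37 and 2.44 (1.25 ± 0.55, adjusted p = 0.103), and ITGB2, the beta-2 integrin of leukocytes, differed by 1.29 ± 0.71 (adjusted p = 0.19). The exception was TYROBP, another signalling chain of myeloid cells, at −0.57 ± 0.26 (adjusted p = 0.119).

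Of 8 lysosomal genes 1 rose, beside 10.9% of all named genes higher, and all 8 differences were above 0 with a median of 0.94. The gap between the list's mean levels was 0.92, or 0.56 without border array 3. The gene that rose was NPC2, which exports cholesterol from lysosomes (0.85 ± 0.30, 1.80-fold, adjusted p = 0.0477). It no longer passed without border array 3 (0.57, adjusted p = 0.264), border array 1 (0.95, adjusted p = 0.0521), infarct array 2 (0.89, adjusted p = 0.0721) or infarct array 3 (0.63, adjusted p = 0.199), with no filter (adjusted p = 0.0557), or with the replicate number as a block. Cathepsin B (CTSB), a protease of lysosomes, was at 4.69, 4.96 and 4.49 against 4.21, 4.26 and 2.65, so that border array 3 stood well below the rest and the difference of 1.01 ± 0.51 did not pass (adjusted p = 0.156). Of 8 genes of antigen presentation 2 rose, the costimulatory receptor CD40 (0.88 ± 0.23, 1.84-fold) and the lipid-presenting CD1D (0.93 ± 0.27, 1.90-fold). They stood, without border array 3, at 0.66 (adjusted p = 0.0746) and 0.69 (adjusted p = 0.126), and CD1D also failed without infarct array 1 (adjusted p = 0.0628) or infarct array 3 (adjusted p = 0.062). None of 7 interferon response genes and 3 complement genes passed, with MX1 at 0.76 ± 0.50 and C3 at −0.64 ± 0.66.

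Neutrophil, lymphocyte and mast cell markers gave no call, beside 26.5% of all named genes called in either direction. The 4 tested neutrophil markers were LTF (0.24 ± 0.86), MMP9 (0.09 ± 1.06), ITGB2 and BAC5, whose 2 tested probes gave 0.006 and −0.46. The T and NK cell list of 8 had a median of −0.10, the mast cell list of 3 a median of 0.18, and CR2, the only tested B cell marker, differed by 0.46 ± 1.1. The intervals of LTF, MMP9 and CR2 are wide, with standard errors of 0.86 to 1.1.

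**Figure D3:**
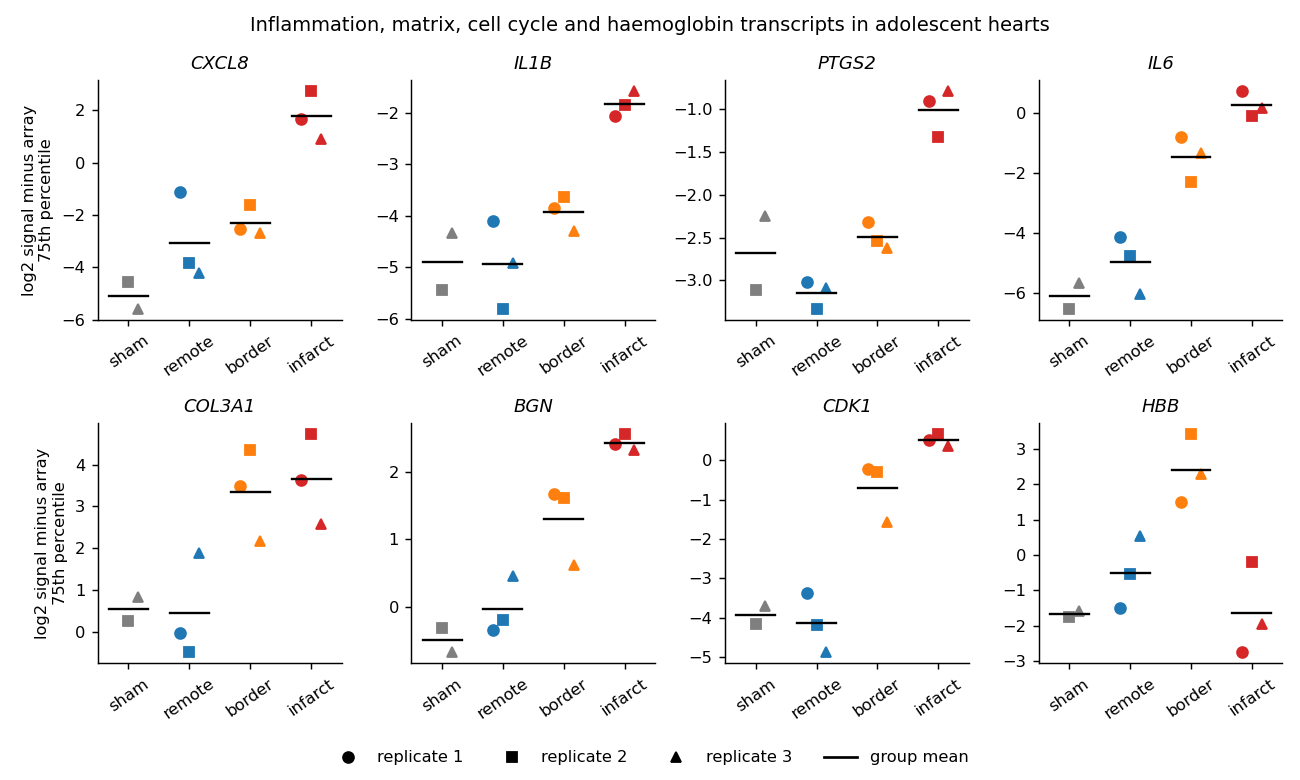
Levels of 8 genes of inflammation, matrix, cell division and blood in adolescent hearts, on a vertical axis of log2 signal minus the array's 75th percentile, for sham, remote, border and infarct; each point is 1 array, its shape gives the replicate number, and the line is the group mean. CXCL8, IL1B and PTGS2 stand apart in the infarct, COL3A1 and IL6 stand above remote in both border and infarct, IL6 higher in the infarct, and HBB peaks in the border at 1.5 to 3.42.

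The main collagens of the scar gave no call between core and border. COL3A1 was at 3.64, 4.74 and 2.57 in the infarct and at 3.49, 4.35 and 2.16 in the border. The groups overlapped almost wholly and kept the same order of replicate numbers, and the difference was 0.32 ± 0.66 (adjusted p = 0.753, 95% confidence interval −1.07 to 1.70). Within replicate numbers 1 to 3 the infarct was higher by 0.15, 0.39 and 0.41. With the replicate number as a block the adjusted p was 0.734. That block is 1 shift per number shared by all 8 groups, so it does not test these differences as pairs. COL1A1, the main chain of collagen I, differed by 0.24 ± 0.50 and the protease inhibitor TIMP1 by −0.42 ± 0.65, and neither passed.

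A different part of the matrix list did rise, 4 of 10 genes with none lower, beside 10.9% of all named genes higher. The list median was 0.36 and the gap of mean levels 0.52, or 0.21 without border array 3. COL5A2, a chain of the collagen that seeds fibrils, was at 2.47, 2.79 and 2.35 in the infarct and at 1.81, 1.58 and 0.59 in the border, with no overlap and a 2.32-fold rise (1.21 ± 0.34, adjusted p = 0.0161). COL12A1, a collagen on the surface of fibrils, rose 2.37-fold (1.24 ± 0.41, adjusted p = 0.0329) and the small proteoglycan biglycan (BGN) 2.21-fold (1.14 ± 0.34, adjusted p = 0.0203). Decorin (DCN), a close relative of biglycan and a fibroblast marker, was at 6.89, 6.96 and 6.94 against 6.22, 6.30 and 6.19, tight in both groups, and rose 1.61-fold (0.69 ± 0.17, adjusted p = 0.0082). DCN still passed without border array 3 at 0.67 (adjusted p = 0.0356), whereas COL5A2, COL12A1 and BGN came to 0.84, 1.00 and 0.80 with adjusted p of 0.122 to 0.168. These 3 also failed without infarct array 2 (adjusted p 0.0525 to 0.0813), and COL12A1 without infarct array 1 (0.0598) or infarct array 3 (0.0735).

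Of 12 matrix proteases and inhibitors 2 rose, beside 10.9% of all named genes higher, and the gap of the list's mean levels was 0.48, or 0.23 without border array 3. They were PLAU (urokinase), which activates plasmin, by 1.95-fold (0.96 ± 0.29, adjusted p = 0.0231) and MMP2, a gelatinase of fibroblasts, by 1.80-fold (0.85 ± 0.25, adjusted p = 0.0183). Both failed without border array 3 (0.63 for each, adjusted p = 0.166 and 0.123) and without infarct array 2 (adjusted p = 0.0921 and 0.057), and MMP2 failed without infarct array 1 (adjusted p = 0.0536). The 3 MMP2 probes ranged from 0.11 to 0.85, 1 of them past the threshold, and their mean did not pass (0.54, adjusted p = 0.16). The urokinase receptor PLAUR was at 2.30, 2.45 and 2.71 in the infarct and at 1.60, 1.61 and 0.42 in the border, apart but not past the threshold (1.27 ± 0.76, adjusted p = 0.226). DCN was the only call among 6 fibroblast markers (median 0.38, gap of mean levels 0.47, or 0.082 without border array 3), with VIM at 0.45 ± 0.30 and S100A4 at 0.84 ± 0.83.

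Cell division was the programme with the greatest share of rises, 9 of 11 tested genes, with a median of 1.1 beside a background of 10.9% of named genes higher. The gap of the list's mean levels was 0.86, or 0.59 without border array 3. CDK1 was at 0.51, 0.67 and 0.37 in the infarct and at −0.22, −0.31 and −1.56 in the border. The infarct arrays were tight and above all border arrays, border array 3 the lowest, and the rise was 2.32-fold (1.21 ± 0.36, adjusted p = 0.0199). Its partner cyclins rose as well, CCNA2 by 2.85-fold (1.51 ± 0.40, adjusted p = 0.0105) and CCNB1 by 2.22-fold (1.15 ± 0.37, adjusted p = 0.0282). PCNA, the sliding clamp of DNA replication, was at 1.74, 2.12 and 2.19 against 1.15, 1.19 and 0.31 and rose 2.19-fold (1.13 ± 0.27, adjusted p = 0.00532). CCND3, a G1 cyclin, was at 0.86, 0.46 and 0.70 against 0.11, −0.22 and −0.25 and rose 1.74-fold (0.80 ± 0.19, adjusted p = 0.00555), and both had arrays apart. The kinases CDK2 and CDK4 rose 1.71-fold and 2.11-fold. The exception was another G1 cyclin, CCND2, singled out after its value was seen, which fell 1.75-fold (−0.81 ± 0.27, adjusted p = 0.033).

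The size of these rises leaned on border array 3. Without it PCNA (0.84, adjusted p = 0.0459) and CCND3 (0.73, adjusted p = 0.0327) passed, while CDK2 and CDK4 (0.57 and 0.77, adjusted p = 0.0541 for both), CCNA2 (0.93, adjusted p = 0.0781), CDK1 (0.78, adjusted p = 0.149) and CCNB1 (0.72, adjusted p = 0.199) did not. CDK1 and CCNB1 also failed without infarct array 2 (adjusted p = 0.0534 and 0.0712), and CCNB1 without infarct array 1 (0.0692).

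Of 10 cell death genes 4 rose and 1 fell, beside 10.9% of all named genes higher and 15.6% lower. The survival factor BCL2 rose 1.99-fold (0.99 ± 0.34, adjusted p = 0.0408) and its antagonist BAD 1.55-fold (0.63 ± 0.19, adjusted p = 0.0202), both with arrays apart. The fall was ENDOG, given above with the mitochondrial genes. Without border array 3 these rises were 0.53 (adjusted p = 0.278) and 0.45 (adjusted p = 0.133). BAD and BCL2 also failed without infarct array 1 (adjusted p = 0.0703 and 0.0574) or infarct array 3 (0.0651 and 0.125), and BCL2 without infarct array 2 (0.0771).

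Of 18 genes of angiogenesis and endothelial signalling 1 was higher and 2 were lower. Among all named genes 10.9% were higher and 15.6% lower. Among 8 endothelial markers PECAM1, the junction protein CD31, was the only call. It was at 3.41, 3.17 and 3.35 in the infarct and at 2.79, 2.14 and 2.06 in the border, apart, and rose 1.97-fold (0.98 ± 0.21, adjusted p = 0.00285). It kept its call without border array 3 (0.85, adjusted p = 0.0231). KDR, the main VEGF receptor, differed by −0.21 ± 0.40, TEK by −0.87 ± 0.40 and SELP by 1.74 ± 0.82, none past the threshold. The myosin light chain kinase MYLK of smooth muscle rose 2.14-fold (1.1 ± 0.30, adjusted p = 0.0126, but 0.93 and 0.079 without border array 3), and calponin CNN1, a contractile protein of smooth muscle and myofibroblasts, was at 3.94, 5.07 and 3.70 against 4.66, 5.88 and 5.82 and did not pass (−1.22 ± 0.66, adjusted p = 0.188).

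Haemoglobin fell in the core from a peak in the border. HBB, adult beta globin, was at −2.75, −0.19 and −1.94 in the infarct, at 1.5, 3.42 and 2.28 in the border and at −1.51, −0.54 and 0.53 in remote muscle. The border arrays stood above all infarct and all remote arrays, and infarct was 16.3-fold lower than border (−4.02 ± 0.63, adjusted p = 0.000164). Globin genes are closely related, so the probe may read more than 1 of them. The erythroid marker list had 1 other tested member, the erythropoietin receptor EPOR, at −0.32 ± 0.59. The part of blood left in the samples was not tested.

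A few further genes were among the 12 deepest falls or 12 highest rises. ITGB6, an integrin chain known from epithelia that can release active transforming growth factor beta, was at −4.63, −2.91 and −4.91 in the infarct and at −1.02, 0.30 and 0.30 in the border, apart, a 16.1-fold fall (−4.01 ± 0.56, adjusted p = 5.84e-05). CFL1 (cofilin), which severs actin filaments, rose 2.53-fold (1.34 ± 0.40, adjusted p = 0.0214), PSPH, the last enzyme of serine synthesis, rose 2.51-fold (1.33 ± 0.42, adjusted p = 0.029), and ART4, a surface protein of red cells, rose 2.56-fold (1.35 ± 0.40, adjusted p = 0.0206) with 1 of 3 border arrays above background. These 3 came, without border array 3, to 0.61, 0.91 and 1.36 with adjusted p of 0.105, 0.19 and 0.0678. Without infarct array 3 their adjusted p was 0.0778, 0.13 and 0.0625, without infarct array 1 those of CFL1 and ART4 were 0.0581 and 0.0618, and without border array 2 that of ART4 was 0.0862. Of 46 named calls with several tested probes 10 had a probe that did not pass, and the probes differed in sign for PTGS2 alone. Besides PTGS2, NOS2, MMP2, BMP6, ATP5MC1 and IGF1R these were MYOG, CD40, CD1D and ART4, each with 1 of 2 probes past the threshold. Their probes gave −2.09 and −1.63, 0.74 and 0.88, 0.90 and 0.93, and 0.88 and 1.35, in that order of genes.

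Skeletal muscle, fat and liver markers were checked as other tissues the samples could hold. Among all named genes 15.6% were lower and 10.9% higher. Of 5 skeletal muscle markers 2 fell, the fast troponin TNNC2 (−3.31 ± 1.05, adjusted p = 0.0273, with overlapping arrays) and the myogenic factor MYOG (−2.09 ± 0.50, adjusted p = 0.00545), while MYH1 was not well above background on any infarct or border array. TNNC2 failed in the deposited values (−1.25, adjusted p = 0.147) and without border array 3 (−3.67, adjusted p = 0.0563), border array 2 (−2.15, adjusted p = 0.134), infarct array 1 (−2.91, adjusted p = 0.0893) or infarct array 3 (−2.72, adjusted p = 0.12). LPL was the only call among 8 adipocyte markers, and none of 7 plasma proteins of the liver, 2 Schwann cell and neuron markers or 1 epicardial marker passed. Of 17 ribosomal protein genes, a group expressed in all cells, 1 rose, RPL13 (0.42 ± 0.14, adjusted p = 0.0354), and the list median was 0.02. RPL13 failed without any 1 of border arrays 1, 2 or 3 or infarct arrays 1 or 3 (adjusted p 0.0511 to 0.138).

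To see which of these differences were confined to the core, border and infarct were each set against adolescent remote muscle in the same model. The comparisons share arrays with each other and with core against border, so their values are given side by side and not as separate evidence. Of all probes 27.4% were higher and 29.8% lower in the infarct than in remote (57.3% in either direction), and 12.9% were higher and 13.0% lower in the border (25.9%). Of the named genes 258 were higher in the infarct (30.1%) and 209 lower (24.4%), 54.5% in either direction. In the border 146 named genes were higher (17.0%) and 80 lower (9.33%), 26.4% in either direction. Muscle genes lay below remote by less in the border than in the infarct, and not all of the border differences passed. Neither cardiomyocyte marker, MYH7 or MB, was called between border and remote. MYH7 was 1.60 below remote in the border (95% interval −2.97 to −0.24, adjusted p = 0.078) and 7.77 below it in the infarct. CPT1B was 1.66 below remote in the border (interval −2.45 to −0.87, adjusted p = 0.0044) and 5.66 below in the infarct, and SLC25A4 was 1.1 below in the border (interval −1.80 to −0.41, adjusted p = 0.02) and 4.92 below in the infarct. The border call on SLC25A4 ended without border array 1 or 2 or remote array 2 and in the quantile-normalized and deposited values.

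For some of the falls the border did not differ from remote past the threshold. ADRB1 in the border was −0.29 from remote (95% interval −1.15 to 0.56), AGTR1 −0.16 (−0.89 to 0.58), GJA1 −0.38 (−1.02 to 0.26) and ITGB6 0.26 (−0.93 to 1.44), while the infarct was −3.50, −2.08, −2.19 and −3.75 from remote. These intervals do not show that border and remote were alike, since they reach −1.15 for ADRB1 and 1.44 for ITGB6.

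Among the rises, CXCL8, IL1B, NOS2 and PTGS2 also showed no border change past the threshold. Of these, NOS2 and PTGS2 were no longer called between core and border without border array 3. CXCL8 in the border was 0.76 from remote (95% interval −1.20 to 2.71) and in the infarct 4.82, though remote array 1 stood at −1.14 and the other remote arrays at −3.82 and −4.20. IL1B was 1.01 from remote in the border (interval −0.08 to 2.11) and 3.12 in the infarct, NOS2 0.63 (−0.37 to 1.62) and 2.16, and PTGS2 0.65 (−0.25 to 1.56) and 2.14. DCN, CCND3 and PECAM1 gave the narrowest intervals, with the border at −0.16 (−0.53 to 0.20), −0.00 (−0.40 to 0.39) and −0.06 (−0.50 to 0.39) from remote and the infarct at 0.53, 0.79 and 0.92.

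Other genes were already raised in the border. CDK1 was 3.45 above remote in the border (95% interval 2.70 to 4.20, adjusted p = 3.9e-05), where remote was at −3.38, −4.18 and −4.89, so that most of the distance from remote to core lay between remote and border. COL3A1 (2.88, interval 1.5 to 4.27), COL1A1 (2.15), IL6 (3.49), IL1A (2.94), PLAUR (3.75) and TIMP1 (2.48) were all higher in the border than in remote with adjusted p of at most 0.014, and none differed past the threshold between border and core. Of the macrophage markers 6 of 13 were higher in the border than in remote and 11 in the infarct, and of the fibroblast markers 5 of 6 in the border. Among all named genes 17.0% were higher in the border and 30.1% in the infarct. HBB and the activin receptor ACVR1 were higher in the border than in remote and lower in the infarct than in the border. The differences were 2.91 (interval 1.59 to 4.22) and −4.02 for HBB and 1.11 and −1.13 for ACVR1. ACVR1 was singled out after its values were seen and was not followed through the alternatives. Calls on the border against remote were sensitive to single arrays, with 1860 probes in all without border array 1, 1592 without border array 2 and 1880 without remote array 2 against 3223 with all, and IL6 failed without border array 1 or remote array 3, TIMP1 without remote array 2 and IL1A in the deposited values. After normexp background correction 4 probes passed.

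**Figure D4:**
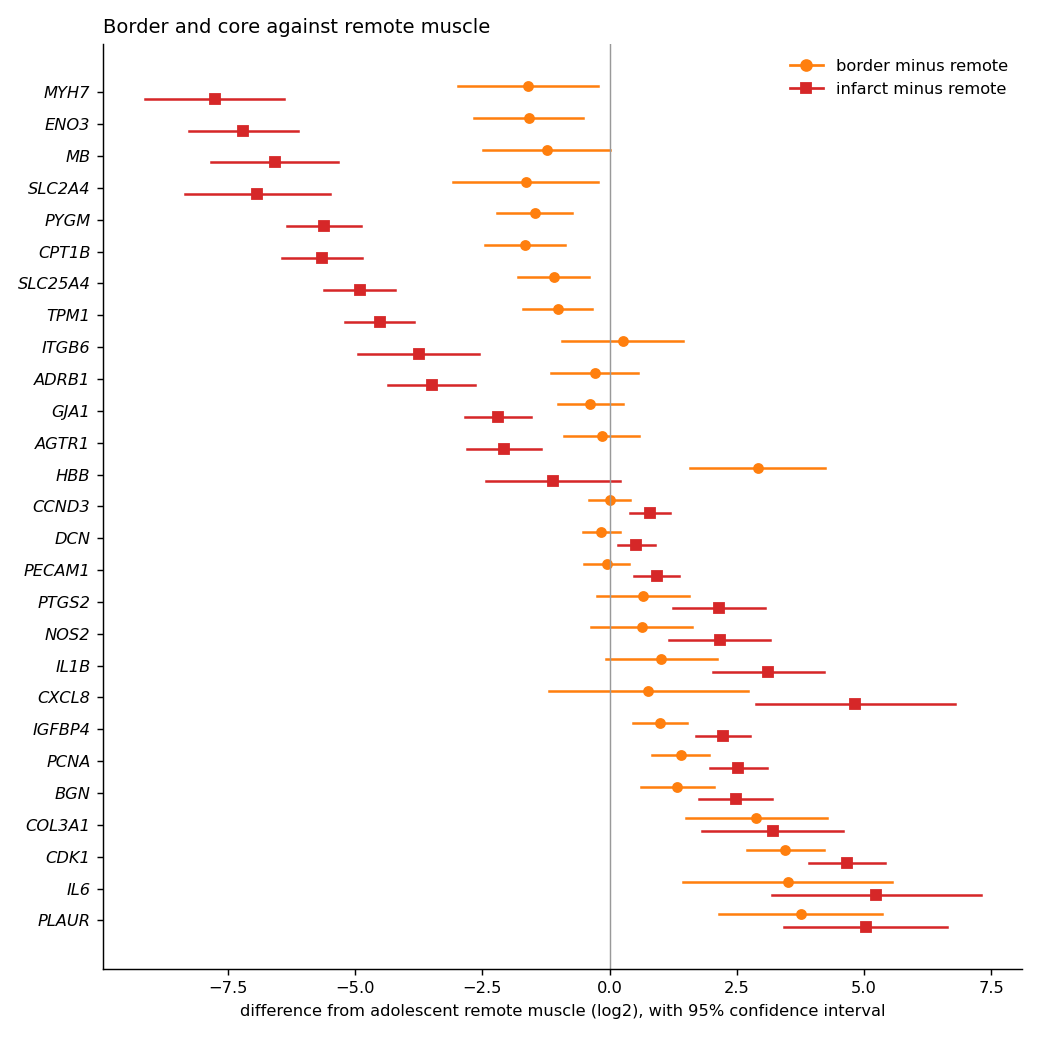
Difference from adolescent remote muscle (log2, horizontal axis) of the border in orange and the infarct in red for 27 genes, with 95% confidence intervals from the limma model. For ADRB1, GJA1, AGTR1 and ITGB6 the border interval includes 0 and the infarct lies at −2.08 to −3.75, and for COL3A1, CDK1, IL6 and PLAUR both zones lie well above 0.

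The same contrast in fetal hearts tested whether the core differs from the border at either age. In fetal infarct against fetal border limma called no probe (0.0%), with 1550 at an unadjusted p under 0.05 and 2 calls in the deposited values. The age difference, adolescent infarct minus border less fetal infarct minus border, passed for 218 probes (1.75%), of which 210 were lower (1.69%) and 8 higher (0.0643%), and for 24 named genes (2.8%), all lower. MYH7 was at 2.90, 2.35 and 1.14 in fetal infarct and at 2.57, 3.02 and 3.67 in fetal border, overlapping, a difference of −0.96 ± 0.65 against −6.16 in adolescents (age difference −5.20 ± 0.92, adjusted p = 0.0079). ENO3 was at 1.74, 1.98 and 1.39 against 2.53, 2.85 and 3.32, a fetal difference of −1.20 ± 0.51 (age difference −4.41 ± 0.72, adjusted p = 0.00726). ITGB6 differed by 0.04 ± 0.56 in the fetus (age difference −4.05 ± 0.80, adjusted p = 0.0126), but was dim there, well above background on 3 fetal infarct and 2 fetal border arrays.

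Most of the other genes described above with an age difference were muscle and energy genes. MB (−4.12 ± 0.84), PRKAA2 (−4.10 ± 0.85), SLC2A4 (−3.84 ± 0.96), PFKM (−3.51 ± 0.58) and PYGM (−3.31 ± 0.49) fell more in the adolescent core, and so did SLC25A4 (−2.98 ± 0.47), TPM1 (−2.86 ± 0.46) and CPT1B (−2.70 ± 0.53). None of the rises in inflammation, matrix or cell division passed the age test. The number of probes fell to between 103 and 115 without any of adolescent infarct arrays 1 or 3, adolescent border array 3, fetal infarct arrays 1 or 2, or fetal border arrays 1 or 2, and rose to 335 without adolescent infarct array 2. Leaving out arrays in turn kept the calls on MYH7, ENO3, PFKM, PYGM, SLC25A4, TPM1, CPT1B, ADRB1 and ITGB6 (adjusted p up to 0.0470), while normexp background correction left no probe past the threshold. In the deposited values CPT1B (−1.44, adjusted p = 0.0727) and PRKAA2 (−0.76, adjusted p = 0.264) did not pass.

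**Figure D5:**
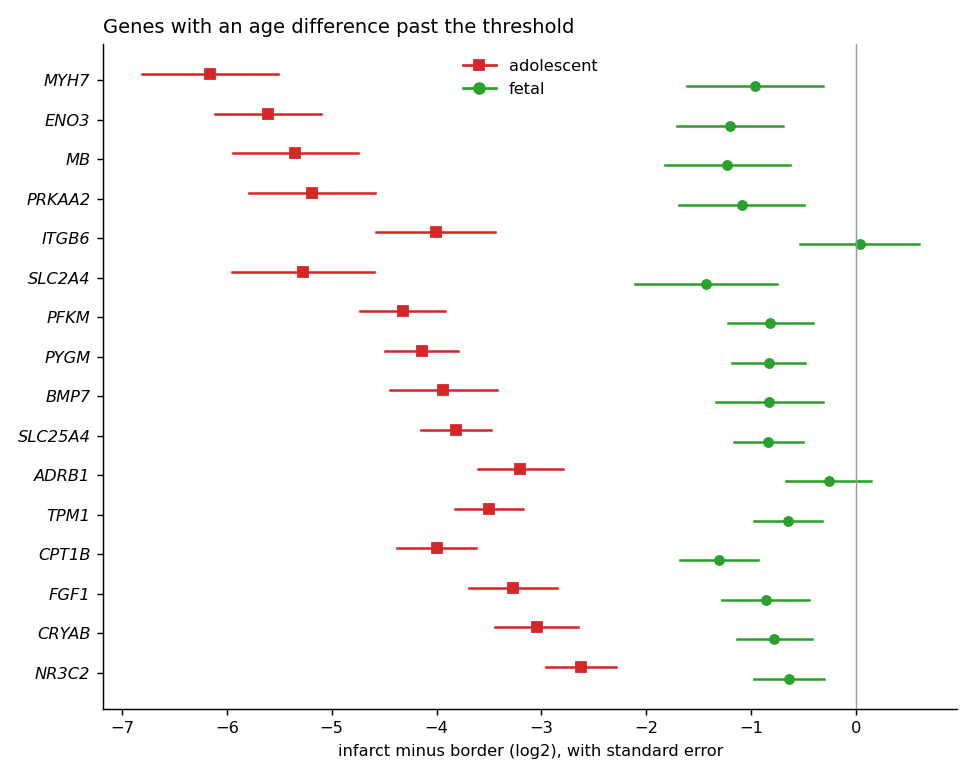
Infarct minus border (log2, horizontal axis) in adolescent hearts, red squares, and fetal hearts, green circles, with standard errors of the limma model, for 16 genes with an age difference past an adjusted p of 0.05. Every adolescent value lies to the left of the fetal one, as for MYH7 at −6.16 and −0.96.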

How the data were processed

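The authors deposited scanner files with signal intensity per spot from Feature Extraction 10.1.1.1 (1-colour protocol), per the file headers, and a table of log2 values for 8411 probes whose normalization is not given in the sources used here. The deposited log2 values have array medians of 9.267 to 9.305 and correlate at 0.949 to 0.981 with the scanner values. The submitters' processing notes name limma with no version. Design number and scanner model in the series text differ from those in the headers. RNA integrity numbers were 7.6 to 9.5, per the labels.

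Each array held 15744 spots, 536 of them controls. Control and outlier spots were left out, spots of a probe were averaged, log2 of the processed signal was taken and the array's 75th percentile subtracted. The probes tested, 12451 of 15008, reached the scanner software's well-above-background flag on 2 or more arrays of some group. Of all probes 1691 carried a name, 1034 names in all, and a gene was its brightest tested probe (857 genes). One limma model (R 4.3.3, limma 3.58.1) covered all 8 groups and 23 arrays, with Benjamini-Hochberg adjustment per comparison. A fold against a group with no array above background is a bound, taken against each array's dimmest signal with the well-above-background flag. The number of arrays limits the precision. The model was tested on simulated data with independent noise, no dim array and 200 of 12451 probes changed. It recovered 39% of 2-fold and 88% of 4-fold changes, and 11 of its 138 calls were unchanged probes. A 2-fold change can therefore fail to pass.

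Genes were named by rule: the 12 highest and 12 lowest folds past the threshold with 1 sign for every replicate number, up to 4 members of each of 28 gene lists and 16 marker lists by moderated t, a set of 36 genes of which 27 were tested, and the 5 highest and 5 lowest in the age difference. LOC symbols are left out, and 2 genes that the rule names are not reported here. The lists and members were chosen with earlier results of these data known. Alternatives were scaling, background correction, filter, model samples, array weights, brightness, replicate block and left-out arrays. Added after the data were seen were leaving out infarct array 3 and border array 3 together, and raising dim values.

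Each replicate number was taken as 1 slide, an assumption that the sample titles do not state. The deviations of infarct and border arrays of 1 number from their group means correlated at 0.341, 0.229 and 0.111, all over 0.1. By that threshold the numbers were taken to pair these samples, on the data alone. A shared slide and a shared animal cannot be told apart here. The main model fits group means without the replicate number, which entered as a block in an alternative. The lowest correlation was 0.034 for infarct with remote, 0.077 for border with remote and 0.000 for fetal infarct with border.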

Additional observations from a re-analysis of the deposited data

Results flagged for a closer look

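The difference between infarct and border itself differed between adolescent and fetal hearts, by limma's test of the difference, for 218 probes and for these named genes. The age difference, adolescent minus fetal, was −5.20 for MYH7, −4.41 for ENO3, −4.12 for MB, −4.10 for PRKAA2, −4.05 for ITGB6 and −3.84 for SLC2A4. It was −3.51 for PFKM, −3.31 for PYGM, −3.11 for BMP7, −2.98 for SLC25A4, −2.94 for ADRB1 and −2.86 for TPM1. The smallest were −2.70 for CPT1B, −2.41 for FGF1, −2.27 for CRYAB and −1.99 for NR3C2. In each of these the adolescent fall was the deeper one. With the replicate number as a block FGF1 and SLC2A4 no longer passed, adjusted p = 0.0521 and 0.0636. In the deposited values 4 calls ended, BMP7 (adjusted p = 0.277), CPT1B (0.0727), NR3C2 (0.114) and PRKAA2 (0.264), with no filter on dim probes 4 ended, CRYAB and NR3C2 (0.0527 for both), FGF1 (0.0602) and SLC2A4 (0.0632), and after quantile normalization FGF1 (0.0512) and SLC2A4 (0.0679). The calls on 7 of the 16 ended when single arrays were left out, with adjusted p up to 0.0595 for MB, 0.0611 for PRKAA2, 0.114 for BMP7, 0.116 for NR3C2, 0.145 for FGF1, 0.151 for SLC2A4 and 0.163 for CRYAB.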

How the results depend on the processing

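Core against border gave 3222 calls, 1327 higher and 1895 lower. After normexp background correction, which moved the median of all probes to −0.69, there were 1701 (618 higher, 1083 lower). With only the 6 arrays in the model there were 1082 (131 higher, 951 lower), and with adolescent arrays only 2100 (613 and 1487). Array brightness as a covariate left 678 (65 and 613). Without infarct array 3 and border array 3 together (added after the data were seen) there were 950 (129 and 821). In each of these settings the rises lost the larger share of their calls. Leaving out each array gave 1427 (without border array 3) to 3209. The other 8 alternatives stayed within 1.5 times. Of 38 named rises none held in every setting, 31 ended without border array 3 and all 38 with brightness as a covariate; of 41 named falls 23 held in every setting. The replicate block kept 78 of 79 named calls, with 3575 probes, and ended NPC2. Infarct against remote gave 7129 calls, 3567 after normexp and 6460 to 6687 leaving out each array. Border against remote gave 3223, 4 after normexp and 1592 to 4138. The age difference gave 218, 0 after normexp and 103 to 335; fetal core against border gave 2 calls in the deposited values. Signs turned after normexp, where every value is on the shifted scale, for ART4 (−1.16), CD40 (−0.14), CXCR4 (−0.42), IRAK4 (−0.14), NOS2 (−0.39) and PSPH (−0.19) in core against border, for CD247 (−0.76), IRF3 (−0.23), MMP9 (−0.96) and SLC2A1 (−0.062) in infarct against remote, and for INSR (0.022) in border against remote. In the deposited values RPS2 (0.45) and RPS27A (0.39) turned in core against border and RPS2 (0.60) and RPS27A (0.48) in infarct against remote, where quantile normalization also turned RPS2 (0.28) and raised dim values turned KIT (−1.21). The cause was not tested. Signal near background limits the sizes of PPARGC1A, PLIN5, PRKAA2, ADRB1, INSR and SMAD3. Some sizes of core against border also depended strongly on the setting. Over all alternatives the smallest fall was −0.50 for PLIN5, −0.73 for PPARGC1A and −1.23 for PRKAA2. For PPARA it was −0.30, for INHA −0.55, for BMP7 −1.50 and for ITGB6 −1.73. Of these genes only PPARGC1A lost its call, so for the others the direction held better than the fold.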
